A study of Mus musculus with 45 samples.

Results

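The T cell receptor signalling components described here are 37 genes, 25 that carry or promote the signal (activators) and 12 that restrain it (inhibitors). They were chosen by name for their role, with earlier results of these data known, and all 37 were rows of the deposited table of read counts, which listed 23420 genes. The RNA came from T cells sorted out of mice that carried B16 tumours, which are grafts of a mouse melanoma line, in 45 libraries that form 9 groups of 5. Regulatory T cells (Tregs), which depend on the factor Foxp3 and hold other immune cells in check, came from the tumour or from a lymph node that does not drain it, with the labels WT, Het_WT, Het_Nrp1- or N in each tissue. The 9th group, labelled Teffector, was effector T cells from the tumour. WT samples came from wild-type mice, while Het_WT and Het_Nrp1- are the 2 genotype labels of the heterozygous groups, and Nrp1 encodes neuropilin-1, a membrane co-receptor of many Tregs. N samples carry the same genotype label as Het_Nrp1- but other titles, and since the design text also names homozygous deficient mice they were kept as a group of their own. Each Treg library was made from 5000 sorted cells, single-sorted in 3 replicates (numbered 2, 3 and 4) and double-sorted in 2 (ds1 and ds2). The sources used here do not give the deleted exons, the promoter behind the deletion, the age of the mice or the markers used for sorting. All mice bore the tumour, so the lymph node samples are no tumour-free control.

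The T cell receptor binds peptide on an MHC molecule, and the CD3 and zeta chains beside it carry the signal into the cell. The kinase Lck, held active by the phosphatase CD45, phosphorylates those chains, Zap70 docks on them, and Zap70 phosphorylates the adaptors Lat and Slp-76 (Lcp2), which gather phospholipase C-gamma. The lipase releases calcium, which activates NFAT, and diacylglycerol, which recruits Ras activators of the RasGRP family and protein kinase C-theta, upstream of ERK and NF-kB. Diacylglycerol kinases, phosphatases and ubiquitin ligases end the signal at each step. Tregs need the receptor for their development and for their suppressive function.

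Total counts ran from 2945638 to 35787148 per library with a median of 10248080, and the 9 ds2 libraries (the second double-sorted replicate) were the shallowest, at no more than 5408375. In each heterozygous Treg group 1 pair of libraries differed little (chi-square per degree of freedom 2.42 to 2.75, against 68.4 or more in the other 86 pairs of a group) and was counted as 1 sample (3 with 4 in the lymph node groups, and 4 with ds1 in the tumour groups, taken as single-sorted), which left 41 samples: 18 tumour Treg, 18 lymph node Treg and 5 effector. The labels do not state that replicates are separate mice, so a p-value here reflects the spread of these samples alone, part or all of which may be technical. The sorted labels were checked on 6 Treg markers (Foxp3, Il2ra, Ikzf2, Ctla4, Tnfrsf18 and Nrp1), whose summed level ran from 3829.8 to 9628 CPM (read counts scaled to the library total, with TMM scaling) in tumour Tregs, from 2008 to 6357 in lymph node Tregs and from 128 to 289 in effector cells. Foxp3 itself was sparse: it ran from 0 to 68.8 CPM in lymph node Tregs with a median of 3.80, and 1 lymph node sample held none. Markers of other cells differed with tissue. In the mean tissue contrast 7 of 9 B cell markers were lower in tumour Tregs, and their summed level ran from 3.49 to 713 CPM in lymph node Tregs and from 4.03 to 86.8 CPM in tumour Tregs. All 7 melanocyte markers were higher there (3.97 to 3544 CPM summed, against 0.634 to 72.0), as were 4 of 11 myeloid ones (1.49 to 273 against 0.18 to 123) and 2 of 6 dendritic cell ones (16.2 to 442 against 0 to 153). The sum of 2 CD8 T cell markers ran from 1.80 to 223 CPM in lymph node Tregs and from 15.9 to 224 CPM in tumour Tregs. That of 4 NK cell markers ran from 0.40 to 834 and from 0 to 51.4 CPM. The value of 834 was that of a double-sorted Het_Nrp1- lymph node sample. The part of these cells in the results below was not tested. In bulk samples fewer cells of a type and less RNA per cell cannot be told apart.

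Levels of different genes were compared as CPM per kilobase of the principal transcript. Cd3g, a signalling chain of the receptor complex, ranked first of the 37 in all 3 cell populations, at 1479 ± 623 CPM per kilobase (SD, n = 18) in lymph node Tregs, 1661 ± 572 (n = 18) in tumour Tregs and 1795 ± 924 (n = 5) in effector cells. Cd3d, the Lck activator Ptprc (CD45), the adhesion receptor Cd2, Lck and Lat filled the next 5 places in each population, in different orders. Among lymph node Tregs, Ptprc (781 ± 193 CPM per kilobase), Cd3d (755 ± 394), Cd2 (707 ± 173), Lat (685 ± 283) and Lck (607 ± 69.1) were neighbours whose SDs overlapped. Cd3e stood far lower than its partner chains, at 157 ± 85.3 CPM per kilobase, and the zeta chain gene Cd247 at 214 ± 117. On the opposite strand, Cd247 shares 3007 bases of exon with Pou2f1 and Cd3e 135 with Gm48719. The part of this overlap in their levels was not tested. Zap70 had 128 ± 79.8 CPM per kilobase. The lowest places belonged to Plcg1, the phospholipase (2.62 ± 4.0), the adaptor Grap2 (Gads, 3.15 ± 3.24), Themis, a regulator of proximal signalling (4.41 ± 3.73), and the ubiquitin ligase Cbl (4.47 ± 3.24), with SDs above the mean for Plcg1 and Grap2. Replicate ds2 carried the Plcg1 values: the 9 ds2 samples held 26.1 to 65.6 CPM and the other 32 samples 0 to 11.6 CPM, with no overlap. Grap2 ran from 18.4 to 127 CPM in ds2 with a median of 37.6, and from 0.116 to 119.8 CPM in the others with a median of 8.52. Between lymph node and tumour Tregs the largest changes of place were those of Dgka, from 7th to 15th, Prkcq, from 18th to 24th, and Rasgrp2, from 28th to 34th.

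**Figure D1:**
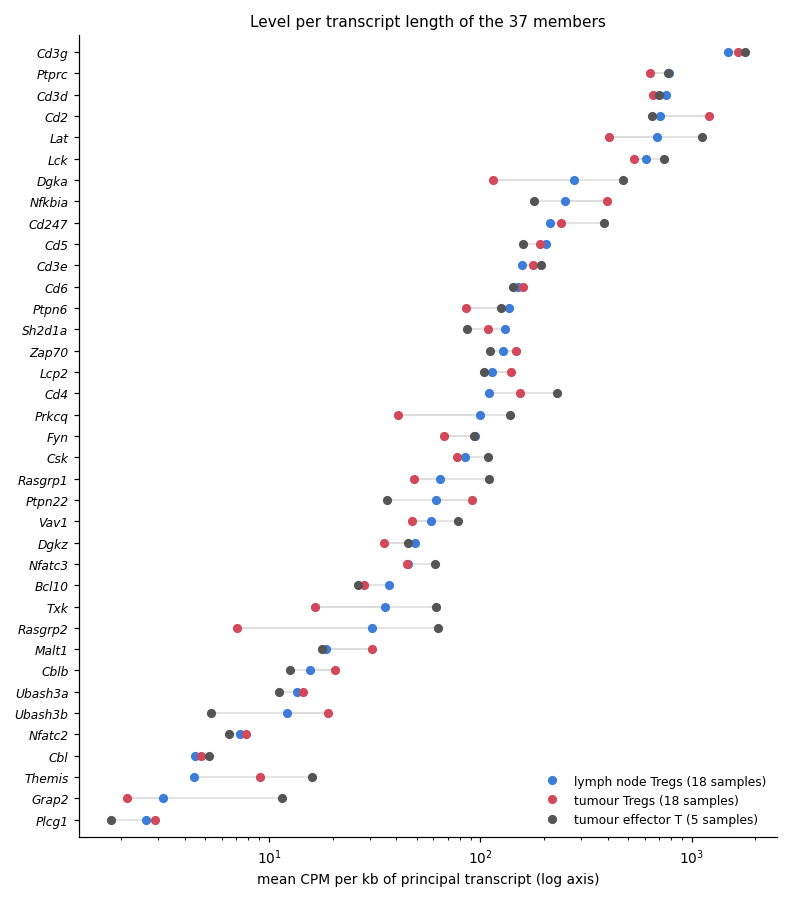
Mean level of each of the 37 members, in CPM per kilobase of principal transcript on a log axis, in lymph node Tregs (blue, 18 samples), tumour Tregs (red, 18) and tumour effector cells (grey, 5); genes are ordered by the lymph node level. Rasgrp2 is lowest in tumour Tregs and highest in effector cells, at 7.02, 30.6 and 63.1 CPM per kilobase.

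The members varied less between replicates than genes at large. Their median within-group SD of log2 CPM was 0.67, against 1.51 over the 14668 genes that passed the filter on low counts, as all 37 members did. The genes were not matched for level. Lck had the smallest SD of all 14668 genes, 0.19, and Lcp2 (0.30), Ptprc (0.31) and Cd2 (0.33) ranked 12th, 15th and 18th. At the other end Plcg1 had an SD of 2.92, Grap2 2.35, Themis 2.23 and Cbl 1.94, the 4 genes with the lowest levels per kilobase in lymph node Tregs. Lck, which starts the cascade, ran from 938 to 1578 CPM with a median of 1166 in tumour Tregs, from 1017 to 1709 CPM with a median of 1322 in lymph node Tregs, and stood at 1677, 1701, 1539, 1589 and 1607 CPM in the 5 effector samples. Replicate ds1 held the value farthest from its group's median in 42.9% of the 333 member-by-group sets and ds2 in 27.3%.

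Tumour and lymph node Tregs were compared first, as the mean of the 4 labels. In tumours, 6 of the 37 members fell (Rasgrp2, Dgka, Prkcq, Lat, Txk and Ptpn6) and 2 rose (Cd2 and Nfkbia), by edgeR's quasi-likelihood test at an adjusted p below 0.05. By role the 6 were 1 member of the RasGRP family (Rasgrp2), 1 kinase that diacylglycerol recruits (Prkcq), 1 kinase that removes diacylglycerol (Dgka), 1 adaptor (Lat), 1 proximal kinase (Txk) and 1 phosphatase (Ptpn6). Over all genes tested 1644 were called, 11.2%, with 5.84% higher and 5.37% lower. Against that background 6 of the 37 members were lower and 2 higher, a count to be read with the members' choice after earlier results. Of the 25 activators 4 fell and 1 rose, and of the 12 inhibitors 2 fell and 1 rose. The median log2 fold change was -0.02 over the members, -0.18 over activators, 0.10 over inhibitors and -0.08 over all genes. With only the double-sorted samples (6 tumour, 8 lymph node) 0 of 37 members and 78 of all genes passed edgeR (4 members at an unadjusted p below 0.05), with all 8 on the same side of 0 as before, and with only the single-sorted ones (12 and 10) 14 members and 1898 of all genes passed, among them all 8.

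**Figure D2:**
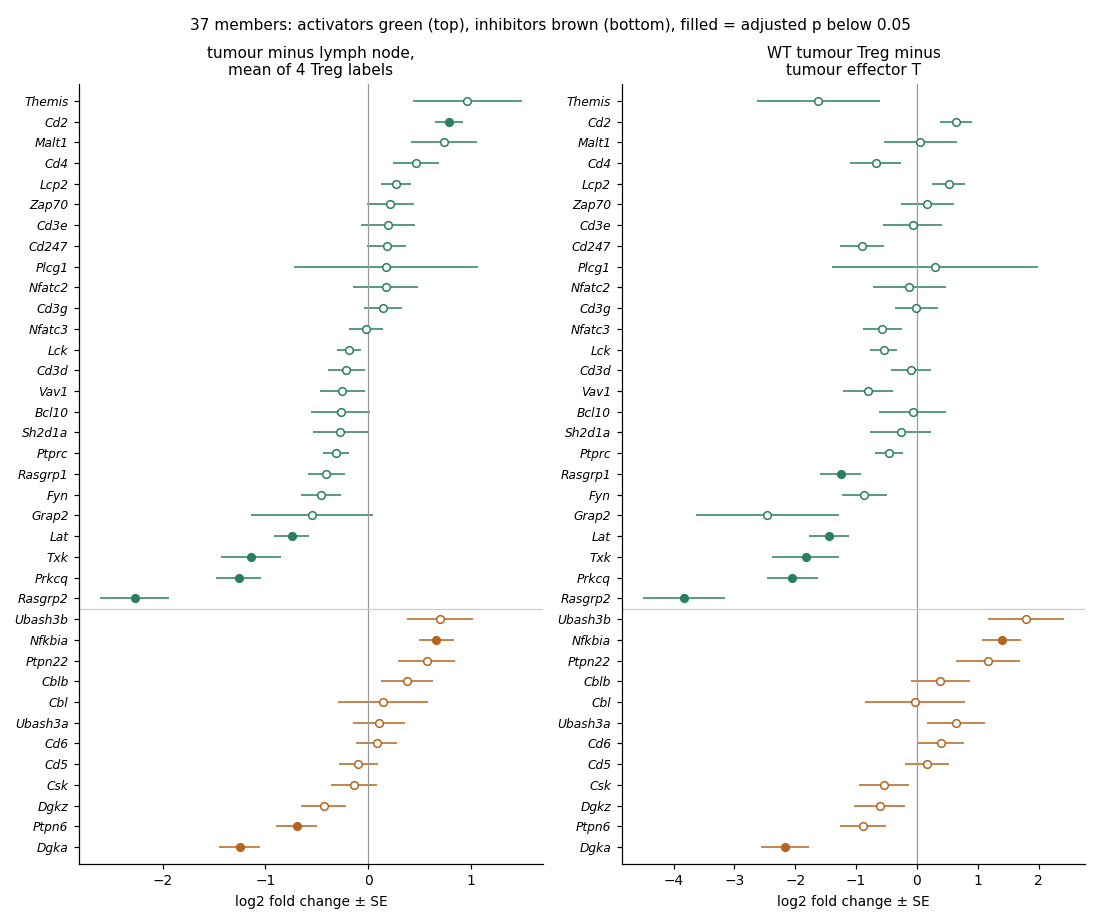
Log2 fold change with its standard error for all 37 members, activators in green above and inhibitors in brown below, in tumour against lymph node Tregs (left, mean of 4 labels) and in WT tumour Tregs against tumour effector cells (right); filled points have an edgeR adjusted p below 0.05. Both panels share the WT tumour samples, and Rasgrp2 is the lowest point in each, at -2.27 and -3.83.

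Among the receptor and coreceptor genes only Cd2 passed in the main edgeR fit of all 41 samples. Cd2, an adhesion receptor that binds CD48 and lowers the threshold of activation (chromosome 3, 101275899 to 101287939, minus strand in mm10), ran from 507 to 1401 CPM with a median of 795 in lymph node Tregs and from 808 to 2059 CPM with a median of 1433 in tumour Tregs. The ranges overlapped, but all 18 tumour samples lay above the lymph node median and 10 above the highest lymph node sample. Cd2 rose in tumours (log2 fold change 0.79 ± 0.14 (SE), edgeR adjusted p = 3.67e-05), with a ratio of medians of 1.80. The CD3 chains Cd3d (-0.21 ± 0.18, adjusted p = 0.535), Cd3e (0.19 ± 0.26, 0.739), Cd3g (0.14 ± 0.19, 0.725) and the zeta gene Cd247 (0.18 ± 0.19, 0.65) did not pass the edgeR test. The MHC class II coreceptor Cd4 stood at 0.47 ± 0.22 (edgeR adjusted p = 0.191). Cd4 and Cd3g passed when only single-sorted samples were fitted, with the replicate number as a block, and with limma on the authors' log2 values. The CD45 gene Ptprc had the smallest p among those that missed, with -0.31 ± 0.12 (edgeR adjusted p = 0.0955).

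Of the proximal kinases, Lck (-0.18 ± 0.12, edgeR adjusted p = 0.365), its relative Fyn (-0.46 ± 0.20, 0.128) and Zap70 (0.22 ± 0.23, 0.65) did not pass. Fyn passed with the replicate block and when only single-sorted samples were fitted. Txk, a Tec-family kinase that can phosphorylate phospholipase C-gamma (chromosome 5, 72695978 to 72752777, minus strand), ran from 36.2 to 174 CPM with a median of 72.0 in lymph node Tregs and from 2.38 to 107 CPM with a median of 34.8 in tumour Tregs. All but 1 of the 18 tumour samples lay under the lymph node median, and 10 lay under every lymph node sample. Txk fell (log2 fold change -1.14 ± 0.29 (SE), edgeR adjusted p = 0.00496).

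Lat, the membrane adaptor that Zap70 phosphorylates (chromosome 7, 126363824 to 126369570, minus strand), was the only one of 5 adaptors that passed. It ran from 427 to 1637 CPM with a median of 752 in lymph node Tregs and from 368 to 687 CPM with a median of 492 in tumour Tregs. The tumour range was narrow and lay in the lower part of the lymph node range: all 18 tumour samples were under the lymph node median, and 13 of 18 lymph node samples exceeded the highest tumour one. Lat fell (log2 fold change -0.74 ± 0.17 (SE), edgeR adjusted p = 0.00187). Its partner Lcp2 (Slp-76) had 0.27 ± 0.15 (edgeR adjusted p = 0.269), and the adaptors Sh2d1a (-0.27 ± 0.27), Grap2 (-0.55 ± 0.60) and Themis (0.97 ± 0.53) had adjusted p between 0.277 and 0.66. Lcp2 passed with the replicate block, and Themis with limma on the authors' log2 values.

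Rasgrp2 showed the largest difference of all members. It encodes CalDAG-GEFI, a calcium-linked exchange factor that loads Rap1 and supports integrin activation (chromosome 19, 6399340 to 6415216, plus strand). Lymph node Tregs held 85.2, 147, 89.8, 38.7 and 63.8 CPM in WT, 62.9, 89.2, 56.0, 6.29 and 41.0 CPM in N, 96.0, 78.9, 85.4 and 71.8 CPM in Het_Nrp1- and 44.5, 79.5, 88.5 and 39.4 CPM in Het_WT. Tumour Tregs held 2.62, 14.9, 13.0, 6.40 and 14.0 CPM in WT, 9.99, 10.1, 17.1, 1.59 and 16.2 CPM in N, 14.5, 4.26, 14.3 and 8.36 CPM in Het_Nrp1- and 69.3, 17.2, 12.2 and 44.4 CPM in Het_WT. All 18 tumour samples were under the lymph node median of 75.4 CPM. The overlap came from 3 samples, the low N lymph node sample ds1 and the high Het_WT tumour samples 2 and ds2. Rasgrp2 fell by 2.27 ± 0.34 (SE) on the log2 scale (edgeR adjusted p = 1.3e-06), and the ratio of medians was 5.59 in favour of the lymph node. It shares 265 bases of exon with a gene on the opposite strand, Gm14965, and the sources used here do not say whether the counting used strand.

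Prkcq, which encodes protein kinase C-theta, the diacylglycerol-bound kinase that leads to NF-kB (chromosome 2, 11172108 to 11301222, plus strand), ran from 221 to 905 CPM with a median of 306 in lymph node Tregs and from 13.4 to 253 CPM with a median of 149 in tumour Tregs. The separation was the cleanest of the members: 16 of 18 tumour samples lay under every lymph node sample. Prkcq fell (log2 fold change -1.26 ± 0.22 (SE), edgeR adjusted p = 2.74e-05). Rasgrp1, the main Ras activator downstream of diacylglycerol in T cells, had -0.41 ± 0.18 (edgeR adjusted p = 0.146), with 15 of 18 tumour samples under the lymph node median. Plcg1 (0.18 ± 0.89) and the exchange factor Vav1 (-0.25 ± 0.22) did not pass, and neither did the CARMA-complex genes Malt1 (0.74 ± 0.32) and Bcl10 (-0.27 ± 0.29) or the transcription factors Nfatc2 (0.17 ± 0.32) and Nfatc3 (-0.02 ± 0.17).

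**Figure D3:**
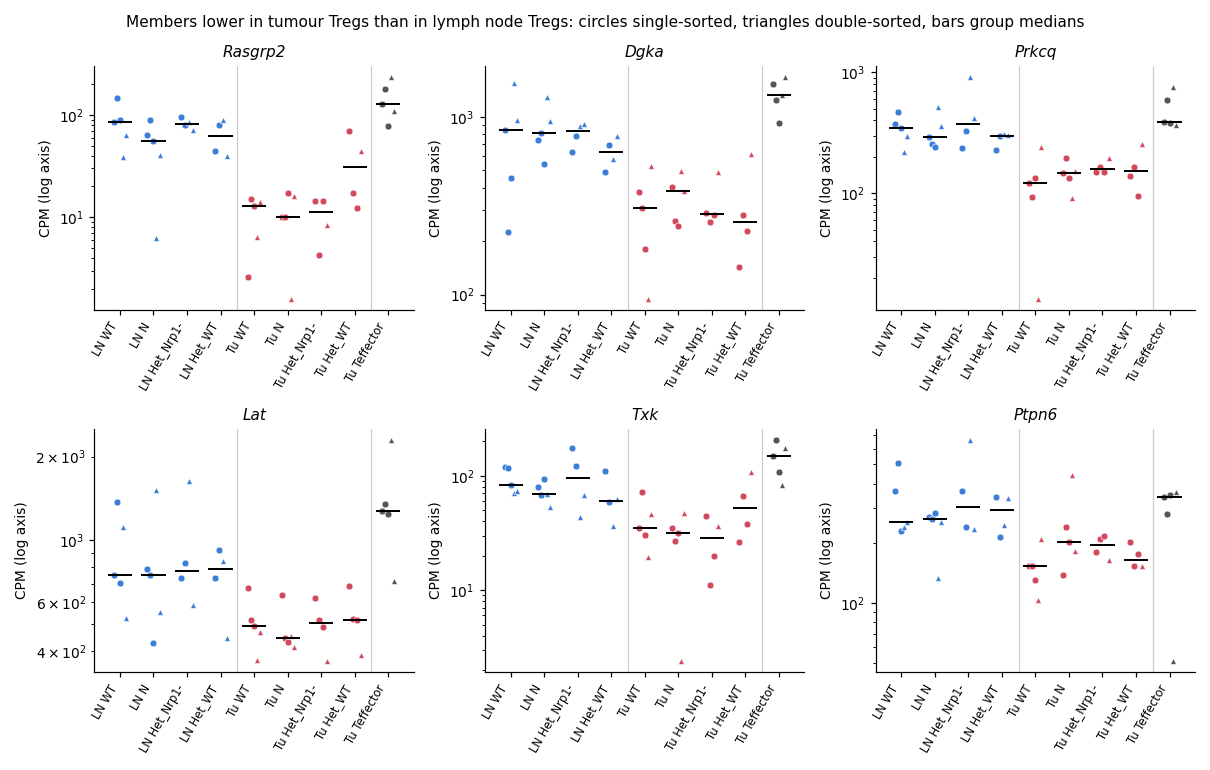
CPM on a log axis in each of the 41 samples for the 6 members that fell in tumour Tregs; lymph node groups are blue, tumour Treg groups red and effector cells grey, circles are single-sorted, triangles double-sorted and bars group medians. For Prkcq 16 of 18 tumour Treg samples lie under all lymph node samples, and effector cells are the highest group for Rasgrp2, Dgka, Prkcq, Lat and Txk.

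On the inhibitory side Dgka and Ptpn6 fell and Nfkbia rose. Dgka encodes diacylglycerol kinase alpha, which converts diacylglycerol to phosphatidic acid and so limits RasGRP and protein kinase C-theta (chromosome 10, 128720134 to 128744855, minus strand). It ran from 224 to 1549 CPM with a median of 784 in lymph node Tregs and from 94.7 to 618 CPM with a median of 285 in tumour Tregs. All 18 tumour samples lay under the lymph node median, while 3 of 18 lay under the lowest lymph node sample, a WT sample at 224 CPM. Dgka fell (log2 fold change -1.25 ± 0.20 (SE), edgeR adjusted p = 9.94e-06), with a ratio of medians of 2.75 in favour of the lymph node. Its exons overlap those of the melanocyte gene Pmel by 105 bases on the opposite strand. Pmel was higher in tumour Tregs (2.30 ± 0.75, edgeR adjusted p = 0.0427), and the part of this overlap in the Dgka values was not tested. The sister kinase Dgkz had -0.43 ± 0.22 (edgeR adjusted p = 0.228).

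Ptpn6 (SHP-1, a phosphatase that reverses Lck and Zap70 phosphorylation, chromosome 6, 124720707 to 124738714, minus strand) ran from 134 to 664 CPM with a median of 261 in lymph node Tregs and from 103 to 444 CPM with a median of 179 in tumour Tregs. The ranges overlapped widely, with 17 of 18 tumour samples under the lymph node median and 2 under every lymph node sample. Ptpn6 fell (log2 fold change -0.70 ± 0.20 (SE), edgeR adjusted p = 0.0151), but the call was lost without the Het_WT lymph node sample 2 (adjusted p = 0.055), without the Het_Nrp1- lymph node sample ds1 (0.0508) and without the filter on low counts (0.0717). It is also expressed in B cells and myeloid cells, whose summed markers differed with tissue as given above, and their part in its fall was not tested. By label Ptpn6 stood at -1.09 ± 0.38 in WT, -0.00083 ± 0.38 in N, -0.97 ± 0.43 in Het_Nrp1- and -0.73 ± 0.42 in Het_WT Tregs, and the value in N turned positive under other settings. Its exons share 195 bases with Gm20531 on the opposite strand. The other phosphatases and kinases of this step, Ptpn22 (0.57 ± 0.28), Csk (-0.14 ± 0.22), Ubash3a (0.11 ± 0.25) and Ubash3b (0.70 ± 0.32), the receptors Cd5 (-0.09 ± 0.19) and Cd6 (0.08 ± 0.20), and the ubiquitin ligases Cblb (0.38 ± 0.25) and Cbl (0.15 ± 0.44) did not pass, with edgeR adjusted p of 0.174 or more.

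Nfkbia encodes I-kappa-B-alpha, which holds NF-kB in the cytoplasm and is itself an NF-kB target (chromosome 12, 55489410 to 55492647, minus strand). It ran from 257 to 615 CPM with a median of 388 in lymph node Tregs and from 355 to 1103 CPM with a median of 548 in tumour Tregs. All but 1 of the 18 tumour samples exceeded the lymph node median, and 7 exceeded every lymph node sample. Nfkbia rose (log2 fold change 0.66 ± 0.17 (SE), edgeR adjusted p = 0.00522). Of the 8 calls, 7 held in each of the 36 fits that left out 1 Treg sample, Ptpn6 being the exception.

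**Figure D4:**
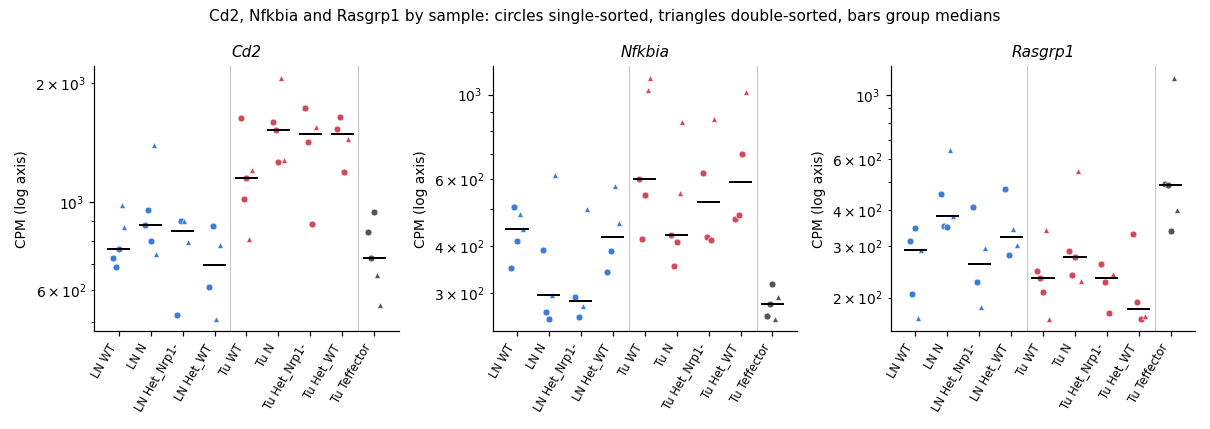
CPM on a log axis in each of the 41 samples for Cd2 and Nfkbia, which rose in tumour Tregs, and for Rasgrp1, which in the main edgeR fit passed only against effector cells. Colours, shapes and bars are as in the plot of the members that fell. For Nfkbia the 5 effector samples (261, 282, 317, 256 and 293 CPM) lie under every WT tumour Treg sample.

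Sequence before a RefSeq start of 4 of the 8 called genes, Rasgrp2, Lat and Txk, which fell, and Nfkbia, which rose, is shown to give the DNA around their starts, a choice made after their values were seen. The sequences are those of RefSeq (build GRCm38.p6, the mm10 assembly), which held an upstream entry for 32 of the 37 members, with Cd2 among the 5 without one. Each runs 5′ to 3′ on the strand of its gene, starts 250 bases before the most upstream RefSeq start and stops where exons begin. The Rasgrp2 stretch lies inside the gene as placed above, since GENCODE vM21 starts that gene at 6399340, before the RefSeq start used. Capitals mark CACCC or its reverse complement GGGTG, the core bound by Kruppel-like factors, in the first 3, and in Nfkbia a match on either strand to GGG, any 2 bases, then TTTCC, the kappa-B element bound by NF-kB.
Rasgrp2 (chr19:6399625-6399745, plus strand): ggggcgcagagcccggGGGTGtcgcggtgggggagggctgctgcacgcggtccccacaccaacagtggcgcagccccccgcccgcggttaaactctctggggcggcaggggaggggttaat
Lat (chr7:126369571-126369818, minus strand): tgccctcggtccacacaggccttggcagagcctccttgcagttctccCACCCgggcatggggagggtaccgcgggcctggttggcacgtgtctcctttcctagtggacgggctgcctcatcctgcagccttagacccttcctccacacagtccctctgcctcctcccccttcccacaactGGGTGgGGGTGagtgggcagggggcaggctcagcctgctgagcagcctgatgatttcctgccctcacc
Txk (chr5:72752778-72753027, minus strand): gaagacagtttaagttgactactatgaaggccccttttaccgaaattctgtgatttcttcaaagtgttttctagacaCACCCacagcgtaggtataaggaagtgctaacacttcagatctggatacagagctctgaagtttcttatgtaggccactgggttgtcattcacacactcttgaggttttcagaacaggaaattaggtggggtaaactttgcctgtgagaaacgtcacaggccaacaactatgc
Nfkbia (chr12:55492648-55492897, minus strand): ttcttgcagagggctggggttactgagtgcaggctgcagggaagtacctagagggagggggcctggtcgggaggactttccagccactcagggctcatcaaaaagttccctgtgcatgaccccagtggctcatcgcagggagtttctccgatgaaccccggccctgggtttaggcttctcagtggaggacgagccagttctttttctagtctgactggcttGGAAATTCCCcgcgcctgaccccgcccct
The Nfkbia match, GGAAATTCCC, starts 29 bases before the transcription start, and Nfkbia was the 1 member of 32 with such an element in its 250 upstream bases, against 1.41% of the 32841 upstream regions in the table. CACCC or GGGTG occurred 1 time in the Rasgrp2 stretch, 3 times in that of Lat and 1 time in that of Txk, but 52% of all upstream regions hold it, so its presence does not set these genes apart. A match describes the letters and is no evidence of binding.

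Taken one label at a time, 1 gene passed, Rasgrp2, in 2 of the 4 labels. In WT Tregs Rasgrp2 alone was called (1 of 37, background 0.873% of genes, 0.511% higher and 0.361% lower), at -3.06 ± 0.65 (SE, edgeR adjusted p = 0.00552), with all 5 tumour samples under all 5 lymph node samples. Dgka (-1.44 ± 0.39, adjusted p = 0.0526) and Prkcq (-1.51 ± 0.41, 0.0563) did not pass the same edgeR test. In Het_Nrp1- Tregs Rasgrp2 was again the 1 call of 37 (background 0.654%, 0.348% higher and 0.307% lower), at -3.00 ± 0.73 (edgeR adjusted p = 0.029), and the call was lost without any 1 of the 8 samples (adjusted p from 0.0545 to 0.201). In N Tregs DESeq2 called 1 member, Rasgrp2, and 395 of 13143 genes. By edgeR 0 of 37 passed (background 0.791%, 0.566% higher and 0.225% lower), with 6 members at an unadjusted p below 0.05. The 3 smallest p belonged to Rasgrp2 (-2.22 ± 0.63, adjusted p = 0.0836), Dgka (-1.28 ± 0.39, 0.114) and Prkcq (-1.20 ± 0.41, 0.192). In Het_WT Tregs DESeq2 called 0 members and 279 of 12022 genes. By edgeR 0 of 37 passed (background 0.239%, 0.164% higher and 0.075% lower), with 2 members at an unadjusted p below 0.05. Its smallest p were those of Cd2 (1.07 ± 0.29, adjusted p = 0.121), Dgka (-1.0 ± 0.43, 0.502) and Rasgrp1 (-0.70 ± 0.38, 0.666). Rasgrp2 stood at -0.82 ± 0.68 there (edgeR adjusted p = 0.785). Samples 2 and ds2 of the Het_WT tumour group held 69.3 and 44.4 CPM against 17.2 and 12.2 in the other 2. Median-of-ratios scaling moved the median of all genes by 0.12 in the WT contrast, 0.11 in N, -0.12 in Het_Nrp1- and -0.11 in Het_WT, and in every one of these 4 contrasts Rasgrp2, Dgka and Prkcq stayed under 0 with it.

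WT tumour Tregs were next set against effector T cells of the tumour, a comparison that shares the WT tumour samples with the ones above. Here 7 of 37 members passed the edgeR test, where 5.71% of all genes did, and 6 of the 7 were lower in Tregs, where 1.61% of all genes were lower and 4.1% higher. Rasgrp2 stood at 128, 177, 77.9, 232 and 109 CPM in the 5 effector samples, all above the highest WT tumour Treg sample (14.9 CPM), and it was lower in Tregs (log2 fold change -3.83 ± 0.67 (SE), edgeR adjusted p = 6.16e-05). Dgka stood at 1541, 1238, 930.1, 1323 and 1668 CPM in effector cells against 379.9, 308, 179.9, 94.7 and 530.2 in WT tumour Tregs, with no overlap (log2 fold change -2.17 ± 0.40 (SE), edgeR adjusted p = 0.000111). Prkcq stood at 391, 588, 378, 753 and 368 CPM in effector cells against 121, 92.4, 134, 13.4 and 240.2, again with no overlap (log2 fold change -2.05 ± 0.42 (SE), edgeR adjusted p = 0.000598). Those 3 genes were highest in effector cells, lower in lymph node Tregs and lowest in tumour Tregs by their medians.

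Lat followed the same order, with 1273, 1354, 1241, 2294 and 717 CPM in effector cells against 675, 519.5, 494, 373 and 467 in WT tumour Tregs and no overlap (log2 fold change -1.44 ± 0.33 (SE), edgeR adjusted p = 0.00241). Txk stood at 149, 206, 109, 82.7 and 174 CPM in effector cells against 34.9, 71.8, 30.4, 19.4 and 45.8 (log2 fold change -1.83 ± 0.56 (SE), edgeR adjusted p = 0.0353). The groups did not overlap, but the Txk call was lost in 8 of 10 fits that left out 1 sample (adjusted p up to 0.114) and held only without WT tumour sample 3 or effector sample ds1. Rasgrp1 stood at 494, 489, 339, 1139 and 401 CPM in effector cells against 246, 234, 209, 342 and 168, with 4 of 5 effector samples above every Treg sample (log2 fold change -1.25 ± 0.34 (SE), edgeR adjusted p = 0.0147). Without effector sample ds1, the highest, its log2 fold change was -0.83 and the call was lost (adjusted p = 0.157). Nfkbia was the 1 member higher in Tregs, with 261, 282, 317, 256 and 293 CPM in effector cells under all of 600.1, 418, 544, 1029 and 1103 in WT tumour Tregs (log2 fold change 1.39 ± 0.32 (SE), edgeR adjusted p = 0.00305). The median log2 fold change was -0.55 over the 25 activators and 0.28 over the 12 inhibitors, with 0.07 over all genes, and 20 of 25 activators lay under 0. Median-of-ratios scaling raised the median of all genes here by 0.12, so the members' values sit that much higher with it, and 3 members then change sign. With that scaling the same number passed, with Ubash3b in place of Rasgrp1, where 820 of 14668 genes passed. With only the double-sorted samples 0 members passed edgeR (3 at an unadjusted p below 0.05), and on the authors' log2 values limma called 1, Cd4. Beside this, 4 of 7 melanocyte and 2 of 6 dendritic cell markers were higher in WT tumour Tregs, with melanocyte sums of 6.58 to 3544 CPM against 3.28 to 77.5 in effector cells, and their part was not tested.

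In WT lymph node Tregs against the same effector cells DESeq2 called 1 member, Rasgrp1, and 610 of 12022 genes. By edgeR 0 of 37 members passed, where 1.79% of all genes did (1.69% higher and 0.102% lower), and 6 members had an unadjusted p below 0.05. The 3 smallest p belonged to Rasgrp1 (-1.10 ± 0.34, edgeR adjusted p = 0.0888), Cd4 (-1.26 ± 0.43, 0.153) and Ubash3b, a phosphatase that targets Zap70 (1.60 ± 0.62, 0.277). Cd4 stood at 562, 481, 757, 1463 and 327 CPM in effector cells against 279.6, 329, 277, 447 and 166 in WT lymph node Tregs. It passed when only single-sorted samples were fitted, with the replicate number as a block, and on the authors' log2 values. Rasgrp2 had -0.77 ± 0.60, Dgka -0.73 ± 0.38, Prkcq -0.53 ± 0.40 and Lat -0.62 ± 0.32, all with an edgeR adjusted p of 0.56 or more.

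The labelled genotypes were compared within each tissue in 8 contrasts, and the tissue difference between genotypes in 2. In all 10, 0 of 37 members and 0 of 14668 genes (0%) passed edgeR, with 0 to 2 members and 291 to 952 genes at an unadjusted p below 0.05, and DESeq2 called 0 members and 3 to 315 genes. The unadjusted count depended on the values used: for N against WT tumour Tregs it was 0 in this fit, 4 with the replicate block and 11 with limma on the authors' log2 values (17 genes of all called, 0 members). In that contrast 30 of the 37 members lay above 0, and 28 with median-of-ratios scaling. The median over all genes was -0.08 and -0.14 in the same order. Its WT arm holds sample ds1, with the lowest activator mean of all samples (6.18), whose part in this was not tested. Of 370 fits of a member, 8 had an unadjusted p below 0.05, and the smallest adjusted p was 0.784. Rasgrp2 accounted for 3 of the 8. Between Het_Nrp1- and Het_WT tumour Tregs it stood at -1.78 ± 0.69 (log2, SE), between Het_WT and WT tumour Tregs at 1.81 ± 0.65, and the tissue difference of Het_Nrp1- minus that of Het_WT was -2.18 ± 0.96 (edgeR adjusted p = 1 in each). Those 3 values share the Het_WT tumour samples, whose 2 high values are given above. For N against WT the smallest p in the tumour were those of Sh2d1a (0.97 ± 0.51), Fyn (0.67 ± 0.37) and Ptpn6 (0.68 ± 0.38), and in the lymph node those of Dgkz (1.24 ± 0.42), Rasgrp1 (0.71 ± 0.34) and Nfatc2 (1.17 ± 0.60). For Het_Nrp1- against Het_WT in the lymph node they were those of Vav1 (0.88 ± 0.46), Cd247 (-0.68 ± 0.40) and Fyn (-0.68 ± 0.41). Between Het_Nrp1- and WT Tregs they were Ubash3a (-0.67 ± 0.52), Cd6 (-0.48 ± 0.40) and Sh2d1a (0.62 ± 0.53) in the tumour and Ubash3b (-1.39 ± 0.67), Dgkz (0.88 ± 0.44) and Nfatc2 (1.19 ± 0.63) in the lymph node. Between Het_WT and WT lymph node Tregs they were Bcl10 (-1.13 ± 0.60), Vav1 (-0.71 ± 0.44) and Cd247 (0.50 ± 0.38). After Rasgrp2, the next smallest p were those of Txk (-1.09 ± 0.61) and Nfatc3 (0.39 ± 0.35) for Het_Nrp1- against Het_WT tumour Tregs, of Malt1 (1.15 ± 0.64) and Sh2d1a (0.68 ± 0.53) for Het_WT against WT tumour Tregs, and of Txk (-1.71 ± 0.86) and Vav1 (-1.12 ± 0.65) for the heterozygous tissue difference. For the tissue difference of N minus that of WT they were Ptpn6 (1.09 ± 0.54), Dgkz (-0.80 ± 0.58) and Malt1 (1.05 ± 0.85). The Nrp1 counts do not check the deletion, whose exons are unknown here. A count of 0 does not show equal levels. In data simulated for the larger mean tissue contrast, the model called 9% of genes given a log2 fold change of 1. Those genes were drawn from all genes tested, whose median within-group SD was 1.51, against 0.67 in the members. That share therefore does not give the rate for the members.

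The mean log2 CPM over the activators was 7.5 ± 0.24 (SD, n = 18) in lymph node Tregs, 7.42 ± 0.36 (n = 18) in tumour Tregs and 7.93 ± 0.23 (n = 5) in effector cells. The ranges, 7.0 to 7.80, 6.18 to 7.78 and 7.63 to 8.24, overlapped. The mean over the inhibitors was 7.47 ± 0.27, 7.52 ± 0.23 and 7.26 ± 0.67 in the same order, with ranges of 6.80 to 7.95, 6.88 to 8.0 and 6.10 to 7.71. By group the activators were lowest in WT tumour Tregs, 7.13 ± 0.59 (n = 5), where sample ds1 stood at 6.18. Without that sample the mean over all tumour Tregs was 7.5 ± 0.19 (n = 17), level with the lymph node mean. Without ds1 the WT mean was 7.37 ± 0.28 (n = 4), against 7.61 ± 0.05 in N, 7.41 ± 0.08 in Het_Nrp1- and 7.57 ± 0.23 in Het_WT tumour Tregs. The inhibitors of WT tumour Tregs stood at 7.42 ± 0.36, and those of the other 3 tumour Treg groups at 7.51 to 7.62. The lowest inhibitor mean of a single sample, 6.10, was that of effector sample ds1. Without it the effector mean was 7.54 ± 0.20 (n = 4). The lymph node mean of 7.47 keeps its own ds1 samples, so these means were not ranked. Those samples stood at 7.42 in WT, 7.47 in N, 7.15 in Het_Nrp1- and 6.80 in Het_WT. With the median over members in place of the mean, activators stood at 7.98 in lymph node and 7.74 in tumour Tregs. Inhibitors then stood at 7.69 and 7.53, the reverse of the order of their means. No test was made of these means or medians.

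**Figure D5:**
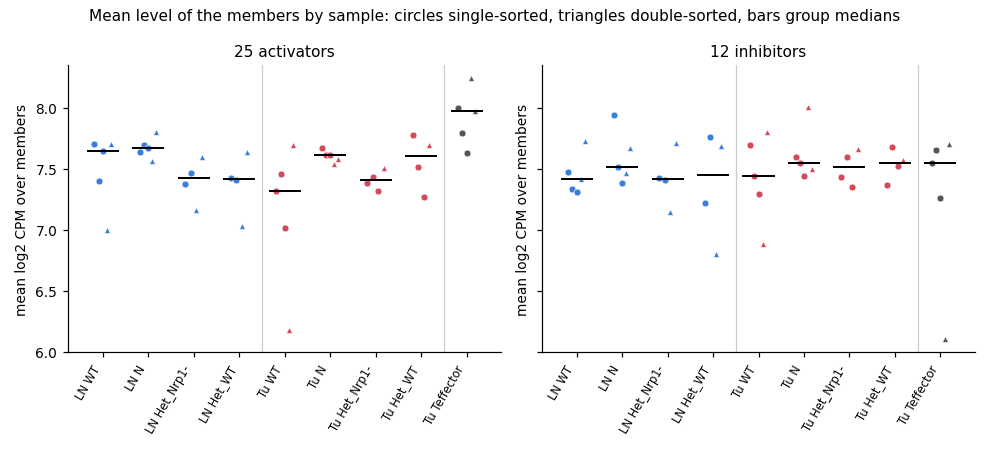
Mean log2 CPM over the 25 activators (left) and the 12 inhibitors (right) in each of the 41 samples; colours, shapes and bars are as in the plots by gene. The activators of effector cells run from 7.63 to 8.24, WT tumour sample ds1 is the lowest for the activators at 6.18, and effector sample ds1 the lowest for the inhibitors at 6.10.

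Other genes of the pathway were read from 6 lists of 99 genes, of which 94 were in the table and passed the filter on low counts. In tumour against lymph node Tregs 12 rose and 9 fell, where 5.84% of all genes were higher and 5.37% lower. Among 21 further kinases and adaptors 2 rose, the Src-like adaptors Sla (1.67 ± 0.17, edgeR adjusted p = 1.37e-10) and Sla2 (1.14 ± 0.35, 0.0226), which promote receptor degradation, and 4 fell, Skap1 (-0.85 ± 0.21), Pik3r1 (-0.80 ± 0.23), Pik3cd (-0.71 ± 0.21) and Lax1 (-0.80 ± 0.26). Of 17 calcium genes the store channel Orai1 (1.11 ± 0.25) and the receptor Itpr1 (1.21 ± 0.25) rose and Orai2 fell (-0.92 ± 0.25). Of 17 genes of Ras and MAP kinase signalling 2 fell, Mapk14 (-0.81 ± 0.24) and the Ras inhibitor Rasa3 (-0.76 ± 0.23). Of 15 NF-kB genes, Tnfaip3, which encodes the feedback inhibitor A20 (1.94 ± 0.31, 8.27e-06), and Nfkb2 (1.02 ± 0.29) rose, while the kinase genes Map3k7 (-1.31 ± 0.37) and Ikbkb (-0.67 ± 0.21) fell. Of 13 negative regulators Lgals1 (1.39 ± 0.19) and the ERK phosphatase Dusp5 (2.88 ± 0.86) rose and none fell.

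Of 11 genes that receptor signalling induces, 4 rose and none fell: Tnfrsf9 (4-1BB, 2.96 ± 0.24, edgeR adjusted p = 2.84e-14), Tnfrsf4 (OX40, 1.72 ± 0.33), and the immediate-early nuclear receptors Nr4a2 (2.32 ± 0.57) and Nr4a1 (1.19 ± 0.34). The other 7 did not pass, and the median over the 11 was -0.04. Against effector cells 8 of the 94 were higher in WT tumour Tregs and 3 lower, where 4.1% of all genes were higher and 1.61% lower. The same 4 response genes were among the higher ones, with Tnfrsf4 at 6.19 ± 0.76, Tnfrsf9 at 5.60 ± 0.50, Nr4a2 at 5.65 ± 1.27 and Nr4a1 at 2.53 ± 0.67, and so were Lgals1 (3.23 ± 0.38), Sla (2.20 ± 0.33), Tnfaip3 (2.42 ± 0.60) and Ptpn7 (1.40 ± 0.45). Orai2 (-2.55 ± 0.49), Skap1 (-1.38 ± 0.40) and Pik3cd (-1.35 ± 0.40) were lower. Tnfrsf9, Tnfrsf4 and Nfkb2 can also respond to other receptors.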

How the data were processed

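RNA from sorted mouse T cells was sequenced from SMARTer Ultra Low Input v3 and Nextera XT libraries on a NextSeq 500, per the labels' protocols. The submitters' processing notes name STAR, featureCounts, limma and the mm10 genome, with no versions. Annotation and strand settings are not given there. The deposited counts are whole reads per gene for 23420 genes, and a second deposited table gives log2 values for 10832 genes, whose values are centred across replicate numbers.

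From the counts, libraries of a group with a chi-square per degree of freedom below 5 (genes with a summed count of 10 or more) were joined, leaving 41 samples. One edgeR 4.0.16 quasi-likelihood model (robust, TMM scaling, filterByExpr by group, R 4.3.3) was fitted to 14668 genes in 9 groups, and p-values were adjusted by Benjamini-Hochberg over all genes within each contrast, with a threshold of 0.05. Log2 CPM used a prior count of 2. Genes were placed and measured with GENCODE vM21. Alternatives were DESeq2 1.42.0, limma 3.58.1 on the authors' log2 values, median-of-ratios scaling, no filter, 45 libraries, a replicate block, 1 sort only and each sample left out. The limma fit took all 45 libraries as separate samples, the joined pairs included. It had no block, although its values were already centred across replicate numbers. With 1 sample left in an arm of a fit, that sample was taken to vary like the others. The model was tested on data simulated for the mean tissue contrast, with the changed genes drawn at random from all genes tested. It called 9 of 100 genes given a log2 fold change of 1 and 52 of 100 given 2. None of these calls had the wrong sign, and 4.69% of all calls were false. The smaller contrasts were not simulated. In the 3 lymph node contrasts of heterozygous with other Tregs, outside N, same-numbered samples deviated together (each r above 0.1, lowest 0.117), and the blocked fit changed no call.

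The members and the other gene lists were chosen with earlier results of these data known. Members passing the test in a contrast were named, or where none did, the 3 with the smallest p. Motifs were sought on both strands in the 250 bases before each RefSeq start.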

Additional observations from a re-analysis of the deposited data

Results flagged for a closer look

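Within a group of 4 or 5 samples, 25 values of a member stood apart from the rest by Dixon's test (a gap to the nearest sample, as a share of the group's range, above the 95% critical value), out of 243 member-by-group sets from 27 members. Chance alone gives about 1 in 20 sets, that is 5%. The Het_Nrp1- lymph node sample ds1 was the high sample of its group for Cd4 (843 CPM, others 192 to 269.9), Cd6 (1312 CPM, others 235 to 375), Nfatc2 (135 CPM, others 38.1 to 50.0), Vav1 (449 CPM, others 107 to 158) and Cd3d (3324 CPM, others 751 to 1122). The N tumour sample ds1 was the high one for Rasgrp1 (548 CPM, others 229 to 289.7), Cd6 (833 CPM, others 311 to 455), Nfatc2 (134 CPM, others 41.8 to 57.6) and Bcl10 (113 CPM, others 45.8 to 63.0). The WT tumour sample ds1 was high for Cd4 (750.1 CPM, others 325 to 405) and Cd3g (2918 CPM, others 1279 to 1659), and the WT lymph node sample ds1 for Ubash3b (246 CPM, others 50.1 to 88.4).

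In the N lymph node group sample ds1 was apart for Ptpn6 (134 CPM, others 256 to 284) and Ubash3b (184 CPM, others 40.8 to 69.4), low for Ptpn6 and high for Ubash3b. Effector sample ds1 was apart for Ptpn6 (50.7 CPM, others 282 to 362), Rasgrp1 (1139 CPM, others 339 to 494) and Nfatc3 (506 CPM, others 309 to 353), low for Ptpn6 and high for Rasgrp1 and Nfatc3, and the Rasgrp1 call against effector cells did not hold without it. Sample ds2 was the high one for Dgka (489.5 CPM, others 255 to 288) in Het_Nrp1- tumour Tregs, for Nfkbia (500.5 CPM, others 260.1 to 294) in Het_Nrp1- lymph node Tregs, for Cd3e (403 CPM, others 130.1 to 149.8) in Het_WT lymph node Tregs, and for Cd3e (749.6 CPM, others 59.7 to 192) and Lck (1578 CPM, others 938 to 1075) in WT tumour Tregs. Among the single-sorted samples, sample 2 was apart for Prkcq (229 CPM, others 298 to 309.9) in Het_WT lymph node Tregs, where it was the lowest, for Lat (639 CPM, others 415 to 455) in N tumour Tregs and for Rasgrp1 (331 CPM, others 169 to 193) in Het_WT tumour Tregs. Whether sort, depth or something else sets these samples apart was not tested.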

How the results depend on the processing

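In tumour against lymph node Tregs over the 4 labels, 8 members were called as well with DESeq2, with median-of-ratios scaling and with all 45 libraries, 7 without the filter on low counts, 12 on the authors' log2 values with limma, 12 with the replicate number as a block, 14 with single-sorted and 0 with double-sorted samples only, and 7 to 9 when 1 sample was left out. Beyond the 8, single-sorted samples called Cd4, Ptpn22, Rasgrp1, Cd3g, Ubash3b and Fyn. The block called Cd4, Cd3g, Lcp2 and Fyn, and limma called Cd4, Cd3g, Themis and Malt1. Over all genes the main fit called 1644 of 14668, DESeq2 2224 of 13421, median-of-ratios scaling 1657 of 14668 and the 45 libraries 2122 of 13704. No filter called 1466 of 22864, limma 1512 of 10832, the block 2031 of 14668 and single-sorted samples 1898 of 14785. For WT alone, where 1 was called, DESeq2, the 45 libraries and the block gave 3 each, single-sorted samples 4, double-sorted samples and limma 0, and leaving out 1 sample 1 to 3. Of all genes in WT the main fit called 128, DESeq2 507 of 12582, the 45 libraries 186 of 13704 and the block 382. Single-sorted samples called 362 of 14785 there and limma 11 of 10832. For N (0 called) DESeq2, the block and single-sorted samples gave 1 each, limma 2, and leaving out 1 sample 0 to 1. Of all genes in N the main fit called 116, DESeq2 395 of 13143, the block 313, single-sorted samples 181 of 14785 and limma 413 of 10832. For Het_Nrp1- (1 called) DESeq2 and the 45 libraries gave 4 each, median-of-ratios scaling, single-sorted samples and limma 2 each, no filter and double-sorted samples 0, and leaving out 1 sample 0 to 0. Of all genes in Het_Nrp1- the main fit called 96, DESeq2 842 of 11463, the 45 libraries 277 of 13704 and median-of-ratios scaling 178. Single-sorted samples called 133 of 14785 there, limma 181 of 10832 and no filter 59 of 22864. For Het_WT (0 called) the 45 libraries and the block gave 1 each and limma 2. Of all genes in Het_WT the main fit called 35, the 45 libraries 142 of 13704, the block 93 and limma 307 of 10832. Against effector cells, where 7 were called in WT tumour Tregs, single-sorted samples gave 12, the block 10, no filter 5, double-sorted samples 0, limma 1, and leaving out 1 sample 6 to 7. Of all genes the main fit called 838 there, single-sorted samples 1242 of 14785, the block 1284, no filter 696 of 22864 and limma 69 of 10832. For WT lymph node Tregs against effector cells (0 called) DESeq2 and limma gave 1 each, the block 2 and single-sorted samples 3. Of all genes the main fit called 263 in this contrast, DESeq2 610 of 12022, limma 350 of 10832, the block 330 and single-sorted samples 372 of 14785. In the 10 genotype and tissue-difference contrasts each of these settings called 0 members.

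Over the 17 contrasts median-of-ratios scaling turned the sign of 0 to 7 members a contrast, most in N Tregs (7). Of the genes named in the report, these turned under 1 or more settings. In N Tregs Ptpn6 was -0.00083 and became 0.14 with DESeq2, 0.14 with median-of-ratios scaling, 0.024 with 45 libraries, 0.025 with the block, 0.51 in double-sorted samples and -0.32 to 0.085 when 1 sample was left out. In Het_WT Tregs Txk was -0.16 and became 1.32 in double-sorted samples, 0.14 with limma and -0.54 to 0.31 when 1 sample was left out. In double-sorted samples Dgka in Het_WT became 0.077 and Cd2 in WT -0.092. In single-sorted samples Vav1 became -0.14 and Cd247 0.057 for Het_Nrp1- against Het_WT lymph node Tregs, and Cd247 for Het_WT against WT lymph node Tregs ran -0.18 to 0.78 when 1 sample was left out, negative only without Het_WT sample ds1. The causes were not tested. Same-numbered samples correlated above 0.1 in every pair only in the 3 lymph node contrasts that involve a heterozygous group and no N sample (where the block gave 0 members), so the numbers were not taken as pairs in the others. There ds1 and ds2 still correlated with their own number (r 0.219 to 0.45 and 0.225 to 0.44), and both also share the double sort. Plcg1, Grap2, Themis and Cbl had the widest spread between replicates of the members, and the part of depth in it was not tested.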
